A study of Mus musculus with 9 samples.

Results

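The list of regions bound by T-bet in wild type Th1 cells holds 3226 peaks, out of 14844 regions in the 3 deposited region lists. All 3226 were used, since the peaks were taken as every entry of the authors' T-bet list. Each entry gives a chromosome, a start and end in build mm9, a length, a count of sequenced tags, a fold enrichment and a false discovery rate set by the authors' peak caller, and the closest gene. The peaks come from 1 ChIP-seq library without a replicate, so every statement is about this library, and no test between conditions was possible. The other regions, set beside T-bet where useful, are 7669 H3K4me1 and 3949 H3K27me3 regions.

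The study set Tbx21-/- Th1 cells against wild type Th1 cells. Both genotypes were C57BL/6 and carried a T-bet-ZsGreen reporter, which makes cells fluoresce when the T-bet gene is active. Naive CD4+ T cells were stimulated with antibodies to CD3 and CD28 on irradiated splenocytes depleted of T cells, with IL-2, IL-12 and an antibody that blocks IL-4, and ZsGreen-positive cells were sorted and expanded. For T-bet, formaldehyde-fixed chromatin of wild type cells was sonicated and precipitated with a T-bet antibody, and input DNA of Th1 cells served as the control. The cells were thus selected for the activity of the reporter, and cells of the same culture that did not express it were not analysed here. The labels do not say how many mice gave the cells of this library. The T-bet antibody was not set against Tbx21-/- cells in the samples used here, so tags that the antibody would bring down without T-bet cannot be told apart from T-bet binding.

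T-bet, the product of Tbx21, is a T-box transcription factor. T-box proteins bind DNA through the T-box domain at a short sequence, the T-box site, and T-bet can open or repress genes by recruiting chromatin modifiers. T-bet is known as the lineage factor of T helper 1 cells, where it turns on interferon-gamma and the receptors that guide these cells into inflamed tissue, and it also acts in natural killer and CD8 T cells.

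The sequences under the peaks are not shown, because they would have to be read from a genome of the same build. Promoters from RefSeq (GRCm38.p6, 250 bases before to 50 after each start) are shown instead for 4 genes. Tardbp and Slc38a10 have a peak that contains the start site given by the authors. Nkg7 and Stat5a are closest to a peak and have AGGTGTGA, a part of the full T-box site, in this window, shown in capitals. These genes were picked for the match, and whether their peak lies in the window was not tested. Stat5a has 2 windows, and the 1 with the match is shown. The Tardbp promoter lies on the minus strand at chr4:148626947-148627246, the Slc38a10 promoter on the minus strand at chr11:120151302-120151601, the Nkg7 promoter on the plus strand at chr7:43436888-43437187 and the Stat5a promoter on the plus strand at chr11:100859406-100859705, all in GRCm38.p6.
Tardbp: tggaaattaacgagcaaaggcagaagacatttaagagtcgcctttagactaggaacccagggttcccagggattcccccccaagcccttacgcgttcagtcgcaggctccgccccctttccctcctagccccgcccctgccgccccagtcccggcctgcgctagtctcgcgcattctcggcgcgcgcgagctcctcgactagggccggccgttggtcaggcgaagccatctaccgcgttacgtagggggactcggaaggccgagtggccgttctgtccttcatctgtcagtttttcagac
Slc38a10: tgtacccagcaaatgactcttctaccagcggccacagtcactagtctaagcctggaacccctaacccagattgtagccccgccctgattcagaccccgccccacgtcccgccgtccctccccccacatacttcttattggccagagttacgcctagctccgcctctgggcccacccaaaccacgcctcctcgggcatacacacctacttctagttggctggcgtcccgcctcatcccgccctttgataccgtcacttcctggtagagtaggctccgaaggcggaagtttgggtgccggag
Nkg7: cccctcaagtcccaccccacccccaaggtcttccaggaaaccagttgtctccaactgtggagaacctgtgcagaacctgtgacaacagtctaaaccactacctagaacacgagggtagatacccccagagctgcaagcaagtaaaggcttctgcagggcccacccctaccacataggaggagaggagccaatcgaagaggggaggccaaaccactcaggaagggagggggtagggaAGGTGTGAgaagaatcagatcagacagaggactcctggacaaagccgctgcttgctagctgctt
Stat5a: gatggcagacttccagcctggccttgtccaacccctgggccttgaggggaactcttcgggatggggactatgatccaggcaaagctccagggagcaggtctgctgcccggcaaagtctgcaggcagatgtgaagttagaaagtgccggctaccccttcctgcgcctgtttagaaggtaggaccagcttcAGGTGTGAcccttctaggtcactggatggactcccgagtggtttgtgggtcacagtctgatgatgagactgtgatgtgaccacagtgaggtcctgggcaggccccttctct
The match starts at position -14 in Nkg7 and at -61 in Stat5a, counted from the annotated start of the window shown as 0, and neither Tardbp nor Slc38a10 has one in the window.

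This part of the T-box site was searched in both directions, as AGGTGTGA and as TCACACCT. At least 1 window held it in 35 of 1813 coding genes closest to a T-bet peak that had a window, or 1.93% (exact 95% interval 1.35 to 2.67). Among all 17492 coding genes with a window it was 237, or 1.35% (1.19 to 1.54). Counted by window, 245 of 21263 promoters held it, or 1.15%. Of the 33 genes closest to 4 or more peaks that had a window, 0 held it, which by the exact interval allows a share of up to 10.6%. The core GTGTGA alone was in a window of 15.8% of bound and 15.3% of all coding genes. These windows cover the start of each gene only, and a match is a match of letters, not a measured site.

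T-bet peaks were short and held few tags. The median length was 349 bp, the middle of the list lay between 296 and 438 bp (quartiles), and the shortest and longest peaks were 118 and 6005 bp. For comparison, the median was 688 bp for listed H3K4me1 regions and 509 bp for H3K27me3 regions, whose chromatin had been cut with micrococcal nuclease and not by sonication. A T-bet peak held a median of 9 tags, with quartiles of 7 and 12 and a lowest value of 6, and 612 peaks stood at that lowest value. A count of 9 has an exact Poisson 95% interval of 4.12 to 17.1, and a count of 6 one of 2.20 to 13.1, so that most peaks cannot be ranked by their tags. The intervals cover counting error only. The total number of mapped tags in the library is unknown.

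Fold enrichment had a median of 2.62, with quartiles of 2.1 and 3.49, and ran from 0.68 to 17.73. The median false discovery rate in the authors' list was 0.28%, 18 peaks were above 5%, and 1 peak stood at 0. Of those 18, 11 had a fold of at least 5 and 4 a fold below 1.5, so that a high false discovery rate was found at both ends of the fold. The median rate was 0.3% in peaks with 6 tags and 0.65% in those with 20 tags or more. A high listed rate therefore does not mark the peaks with few tags. Across peaks, length and tags went together (Spearman correlation 0.758 over 3226 peaks), which share the same fragments. Tags and fold enrichment did not go together (correlation -0.02), nor did length and fold enrichment (correlation -0.10). By groups of tags the median fold was highest, at 3.17, in the 213 peaks with 20 tags or more, and lay between 2.38 and 2.81 in the groups with fewer.

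**Figure D1:**
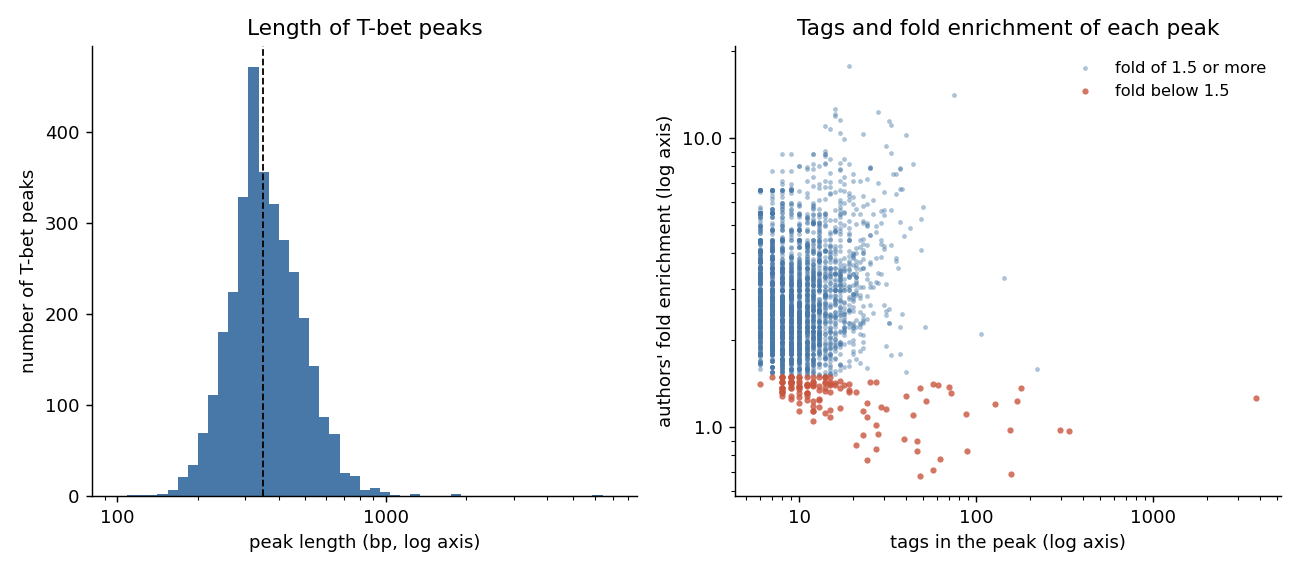
Left, the number of T-bet peaks by length in bp on a log axis, with the median of 349 bp dashed. Right, each peak as a point, with its tags on the horizontal and the authors' fold enrichment on the vertical log axis: the peaks with a fold below 1.5, in red, reach from few tags to the highest count of 3794.

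The peak with the highest fold, 17.73, was closest to Timd2, which encodes a receptor of the T cell immunoglobulin and mucin family, and held 19 tags over 209 bp. Next came a peak at Sgip1, an endocytic adaptor gene, with a fold of 14.1, 75 tags and 1037 bp. The Sgip1 peak is the one with a listed false discovery rate of 0, and the single peak among the 10 highest folds with at least 40 tags. Hdac4, which encodes a class II histone deacetylase, had a peak of 16 tags with a fold of 12.63 and a further 2 peaks of 27 and 8 tags. A homeobox gene, Gsx1, followed with 28 tags, a fold of 12.36 and a false discovery rate of 5.26%, and the coiled-coil gene Ccdc6 with 16 tags and a fold of 12.12. All 5 genes were on neither of the authors' expression lists, as were 93.8% of all bound coding genes.

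The few peaks with the highest tag counts had low folds in most cases. The region at chr17:39979856-39985860, closest to Gm9041, held 3794 tags, or 9.45% of the 40142 tags in the whole list, over 6005 bp. Its fold enrichment was 1.26 and its false discovery rate 50%. On chromosome 2, 4 adjoining peaks assigned to Lrrc4c, a gene of neuronal adhesion, held 335, 297, 180 and 156 tags with folds of 0.97, 0.98, 1.37 and 0.98. Axin2, a scaffold of the Wnt pathway, had 221 tags at a fold of 1.59 and a false discovery rate of 25%. Of the 10 peaks with the most tags, 8 had a fold below 1.5, and of the 5 longest peaks 4 did, namely those at Gm9041, Vmn1r2 and both at Pisd-ps1. The fifth, at Stx6, a gene of vesicle fusion, had 50 tags over 1304 bp, a fold of 5.78 and a false discovery rate of 16.67%.

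In all, 135 peaks (4.18%) had a fold below 1.5, and 16 of them a fold below 1, where the authors' own value puts the T-bet library under its control. These 135 peaks held 18.9% of all tags in the list. Of the 35 peaks with at least 40 tags, 23 were among them. They are kept in every count here unless stated otherwise.

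T-bet peaks were scattered over the genome with local groups. The 3205 gaps between neighbouring peaks on a chromosome had a median of 249.8 kb (95% interval of the median by order statistics 229.7 to 272.2), quartiles of 57.4 and 855.2 kb and a largest value of 22.7 Mb. A neighbouring peak lay within 1 kb of 4.74% of the peaks, within 10 kb of 16.7% (exact 95% interval 15.5 to 18.1), within 100 kb of 53.1% and within 1 Mb (1000 kb) of 93.3%. Joined wherever the gap was at most 10 kb, the peaks formed 2933 runs, of which 2686 were single peaks, 211 were pairs, 27 held 3 peaks, 8 held 4 and 1 held 5.

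**Figure D2:**
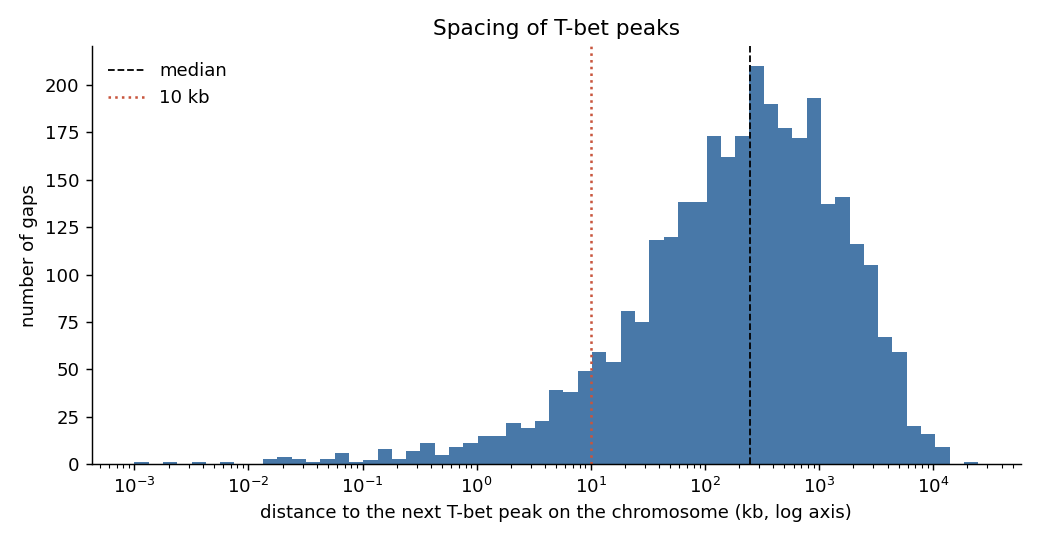
Number of gaps between neighbouring T-bet peaks by distance in kb on a log axis. The median of 249.8 kb is dashed and the 10 kb limit dotted: most gaps lie to the right of 10 kb, with a tail of peaks under 1 kb apart.

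The 9 runs of 4 or more peaks included ordinary and low-fold peaks. At Il2rb, which encodes the beta chain shared by the receptors of interleukin-2 and interleukin-15, 4 peaks lay within 16.1 kb, with 21, 10, 14 and 9 tags and folds of 3.43, 2.72, 5.46 and 2.06. At Mcl1, a survival factor of the Bcl2 family, 4 peaks spanned 14.8 kb with folds from 1.52 to 2.98. At Pdcd4, which encodes a repressor of translation, 4 of its 5 peaks lay within 10.9 kb, with folds from 1.67 to 2.87. At the Rab GTPase gene Rab39b on chromosome X, 4 peaks lay within 4.468 kb with 10, 22, 15 and 10 tags and folds of 3.21, 2.88, 6.8 and 5. The transcripts 0610040F04Rik and C030018K13Rik had a run of 4 peaks each, with highest folds of 7.55 and 6.74. Mir142 and its neighbour Bzrap1 shared a run with folds from 1.16 to 1.84. The remaining 2 runs, at Mir101c and Lrrc4c, consisted of low-fold peaks alone.

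Counted in windows of 1 Mb, 1324 windows held a peak and 524 of these held exactly 1. The 167 windows with at least 5 peaks held 1002 peaks, or 31.1% of the list. The fullest, 87 to 88 Mb on chromosome 11, held 13 peaks at Mir142 and 9 other named genes, with folds from 1.16 to 4.13. Next, with 11 peaks each, came the windows of Ifng on chromosome 10, of 0610040F04Rik and the Th1 factor gene Bhlhe40 on chromosome 6, and of the neighbouring ETS factor genes Ets1 and Fli1 on chromosome 9. A window on chromosome 16 with 10 peaks held the interferon and interleukin-10 receptor genes Ifnar1, Ifnar2, Ifngr2 and Il10rb, with folds from 2.63 to 6.45.

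Most bound genes had 1 peak. Of 2270 coding genes closest to a peak, 1831 (80.7%) had 1, 310 had 2, 84 had 3, and 45 had 4 or more. The genes with the most peaks after Ifng, which had 9, were Btg1, Ets1 and Mir101c with 8, and 0610040F04Rik and H2afy3 with 7. H2afy3 is annotated by RefSeq under the name Macroh2a3 and is not protein-coding there. With 6 peaks each followed Tle4, Prex1, Ptprc, Id2 and Fyn.

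The peaks of Ifng, the signature cytokine of Th1 cells, held 18, 22, 8, 7, 15, 11, 23, 17 and 6 tags in the order of the chromosome, with folds of 3.64, 3.07, 2.98, 2.23, 3.83, 2.79, 5.84, 2.44 and 2.93. They were spread over 232.5 kb, and each of the 9 had a fold above 2. Btg1, an antiproliferative gene of resting lymphocytes, had its 8 peaks spread over 472.3 kb. Their folds ran from 1.33 to 8.83, and the highest belonged to a peak of 12 tags. Ets1, a transcription factor gene expressed in lymphocytes, had folds from 1.71 to 8.82 over 351.5 kb, the highest at a peak of 12 tags at the far end.

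Id2, which encodes an inhibitor of E-protein transcription factors, had 6 peaks over 127.5 kb with 9, 16, 9, 20, 13 and 13 tags and folds of 2.48, 2.73, 2.23, 2.23, 2.1 and 3.78. Ptprc, the gene of the CD45 phosphatase that sets T cell receptor signalling, had 6 peaks over 89.9 kb, 5 of them with folds between 1.52 and 2.02 and 1 with 4.29. Fyn, a Src-family kinase gene, had folds from 1.44 to 2.88. At Tle4, a Groucho-family corepressor gene, 3 of 6 peaks lay side by side, with 18, 6 and 6 tags, and the strongest of these had a fold of 5.58. Prex1, an exchange factor gene for the GTPase Rac, had a peak of 33 tags with a fold of 4.29. A listed H3K4me1 region met 1 of 9 peaks at Ifng, 1 of 8 at Btg1, 1 of 6 at Id2, 1 of 6 at Prex1, and 0 at Ets1, Fyn, Ptprc and Tle4. Over all 3226 peaks the share was 9.55%.

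**Figure D3:**
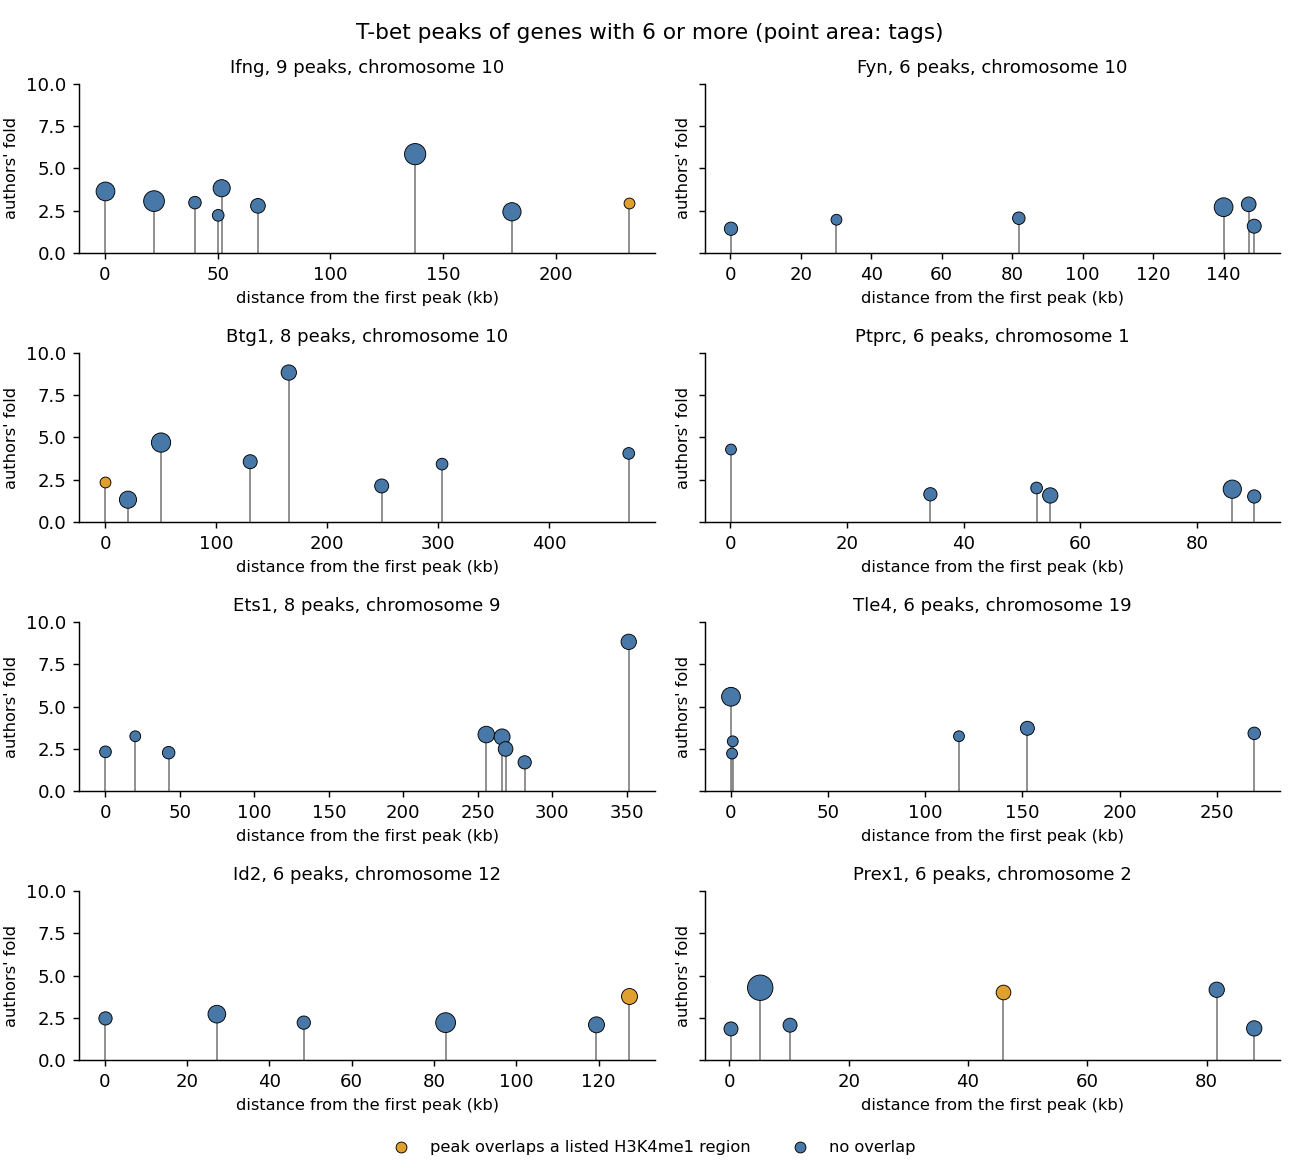
T-bet peaks of the 8 coding genes with 6 or more, each peak drawn at its distance in kb from the gene's first peak, with the authors' fold enrichment as height and its tags as point area. Orange points overlap a listed H3K4me1 region: peaks stand in groups at Ets1, Fyn and Tle4 and apart from each other at Btg1 and Id2.

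Every chromosome carried T-bet peaks. The numbers ran from 251 on chromosome 11 and 243 on chromosome 1 down to 95 each on chromosomes 18 and 19, 53 on X and 2 on Y. Set against the number of coding genes on each chromosome (from RefSeq), the autosomes together had 15.3 peaks per 100 genes. Single autosomes ran from 9.31 per 100 genes on chromosome 7 (95% Poisson interval 8.03 to 10.7) to 21.9 on chromosome 12 (18.6 to 25.8). Chromosome 7 has many olfactory and vomeronasal receptor genes, and without those, keratin and defensin genes its value was 11.8, still the lowest of the autosomes. Over the 19 autosomes, the number of peaks went with the number of coding genes (Spearman correlation 0.779, as a description).

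Chromosome X had 5.49 peaks per 100 coding genes (4.11 to 7.18), or 0.358 times the autosomal value (Poisson interval on the 53 peaks 0.268 to 0.468). Among peaks with a fold of at least 3 the ratio was 0.621. The X peaks had a median of 7 tags and a median fold of 3.21, against autosomal medians between 8 and 10 tags and between 2.35 and 3.09 fold. Their median gap was 1751 kb. The X peaks with a high fold included the 1 peak of Cxcr3, the chemokine receptor gene that marks Th1 cells, with 31 tags and a fold of 9.38, and 2 of the 4 peaks of Rab39b, with folds of 6.8 and 5. The labels used here do not give the sex of the mice, and the part that the number of X copies in the cells plays was not tested. On Y, both peaks were assigned to genes other than coding genes.

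**Figure D4:**
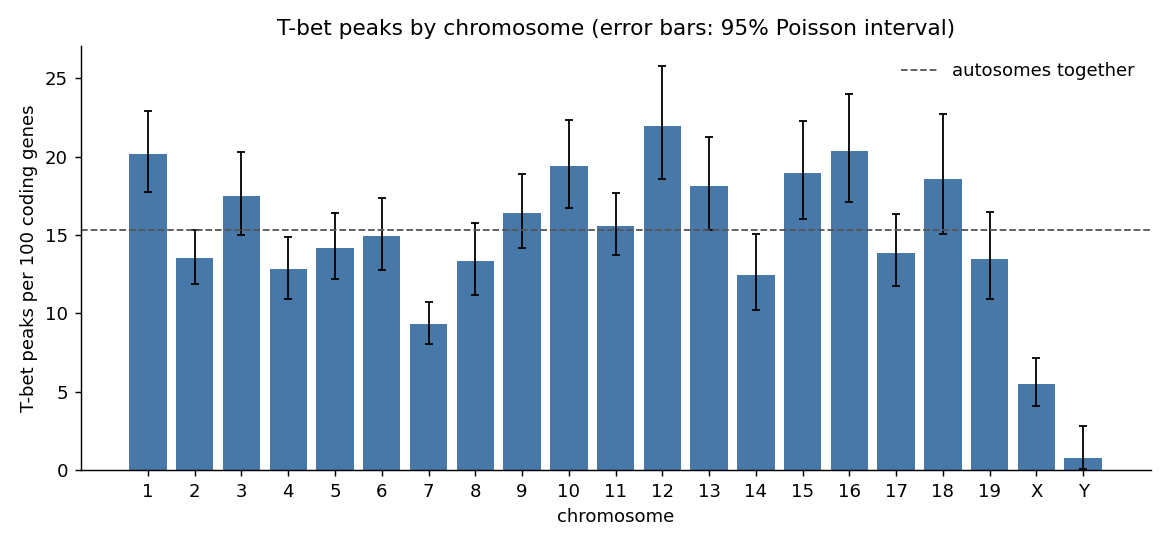
T-bet peaks per 100 protein-coding genes on each chromosome, with 95% Poisson intervals that cover counting error only, and the value of 15.3 for all autosomes dashed. X, at 5.49, and Y, at 0.781, lie below every autosome.

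Protein-coding genes were closest to 2919 of 3226 peaks, or 90.5%. Long noncoding RNA genes were closest to 197 (6.11%), microRNA genes to 43 (1.33%), transcribed pseudogenes to 33 and small nucleolar RNA genes to 4. Peak strength was close in the 2 largest groups, with a median fold of 2.63 at coding and 2.54 at long noncoding genes and 9 tags in both. The name of the closest gene was of the kind given to transcripts without a known function (Rik, Gm or similar) at 386 of 3226 peaks. Another 29 peaks had a name without a match, 10 of them because the name had turned into a date.

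MicroRNA genes were 30 in number, and 29 matched a RefSeq entry. MicroRNAs silence transcripts that pair with their seed, bases 2 to 8. The mature sequences of those the values turn on are shown with the seed in capitals, as RefSeq gives them (GRCm38.p6): the let-7 pair, which shares a seed, the products of Mir142 in the 1 Mb window with the most peaks, and those of Mir148a and Mir101c, whose peaks had the most tags at 1 peak with a fold above 3 and the lowest folds.
mmu-let-7g-5p: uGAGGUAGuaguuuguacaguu
mmu-let-7i-5p: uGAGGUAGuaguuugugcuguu
mmu-miR-142a-5p: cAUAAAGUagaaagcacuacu
mmu-miR-142a-3p: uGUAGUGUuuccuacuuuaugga
mmu-miR-148a-3p: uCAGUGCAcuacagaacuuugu
mmu-miR-101c: aCAGUACUgugauaacuga
The let-7 pair shares the seed GAGGUAG and differs in later bases. No other seed was shared between the 39 mature sequences read, which do not cover every bound microRNA gene. The whole mmu-miR-101c sequence lies within mmu-miR-101a-3p, of the bound gene Mir101a, shifted by a single base, so their seeds differ by that shift.

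Mirlet7g, of a family known to restrain growth genes, had peaks of 7 and 11 tags with folds of 2.07 and 4.34, and Mirlet7i 1 peak of 6 tags with a fold of 5.51. Mir148a, known in mice as a microRNA of Th1 and plasma cells, had 1 peak of 26 tags with a fold of 3.07 that overlapped a listed H3K4me1 region. Mir142, expressed across blood cells, had 3 peaks of 18, 20 and 40 tags, but their folds were only 1.4, 1.84 and 1.28. Mir17, of an oncogenic cluster active in lymphocytes, had 1 peak of 6 tags. At Mir101c 8 peaks held 281 tags together, each with a fold between 0.77 and 1.38. With these included, 25.6% of peaks at microRNA genes had a fold below 1.5, against 3.73% of peaks at coding genes. MicroRNA levels were not measured in these samples.

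Which kinds of coding gene lay closest to T-bet peaks was described by 21 gene lists. The lists were chosen with earlier results of these data known, so the shares and intervals describe them and are not a test. Of all 21887 coding genes, 2270 were closest to at least 1 peak, or 10.4%. Among 301 genes of 10 lists of T cell biology, 144 were, or 47.8% (exact 95% interval 42.1 to 53.6), and each of the 10 lists stood above 10.4% with its whole interval. The shares ran from 63.3% of the transcription factors (43.9 to 80.1) to 30.3% of the cytotoxic and natural killer receptor genes (15.6 to 48.7). Lists of general cell function lay between these and the background: 25.7% of glycolysis and nutrient sensing genes, 25% of cell cycle genes, 21.7% of chromatin regulators, 20.7% of apoptosis genes and 18.8% of ribosomal protein genes. The intervals of the apoptosis list (7.99 to 39.7) and the ribosomal protein list (7.21 to 36.4) included 10.4%, as did those of the lists of other cell types and of developmental pathways. The share a list would have at the same gene length, or at the same expression in Th1 cells, was not tested.

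**Figure D5:**
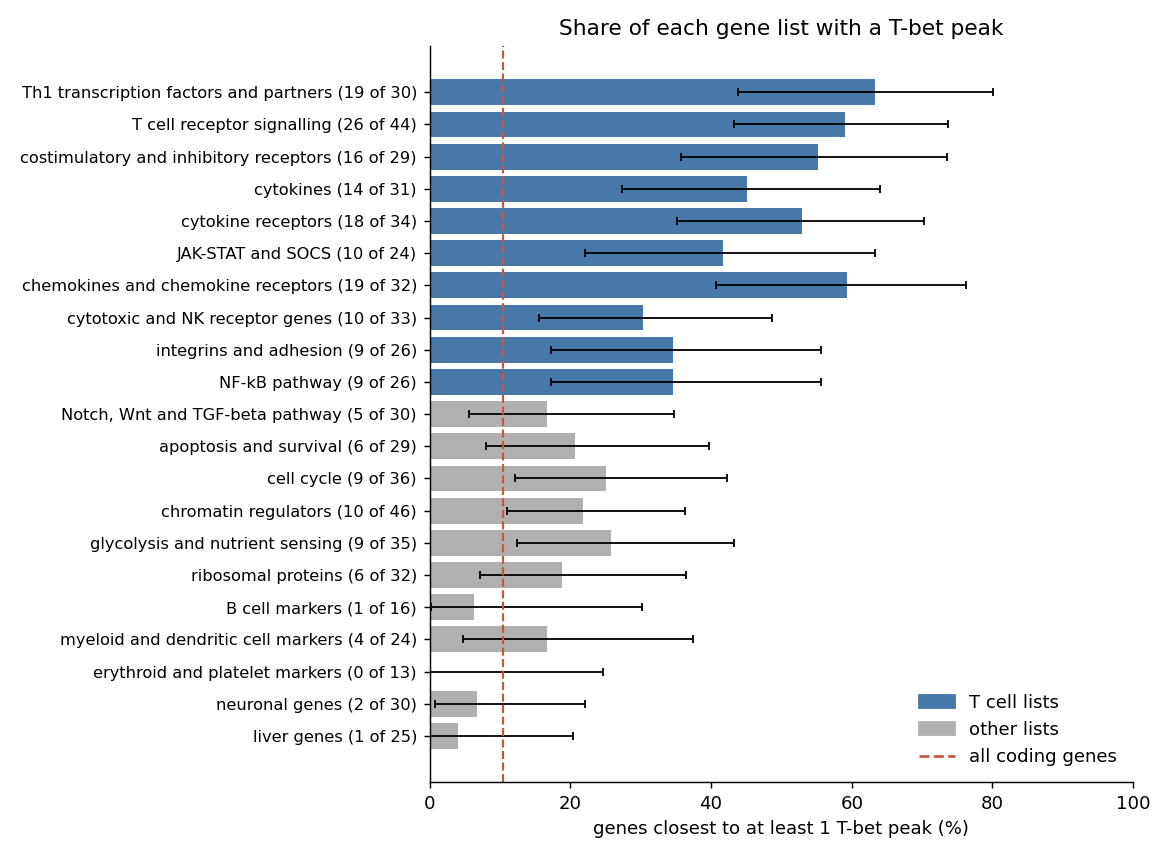
Share of the coding genes in each list that were closest to at least 1 T-bet peak, in percent, with exact 95% intervals and the counts beside the names. All 10 T cell lists, in blue, lie to the right of the 10.4% of all coding genes (dashed), and the lists of other cell types in grey lie around it.

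Transcription factors of Th1 cells and their partners were closest to a peak in 19 of 30 cases, and 14 of these had at least 2 peaks. Besides Ets1, Id2 and Gata3, the lineage factor of Th2 cells, they included both Runx partners of T-bet: Runx3 with 4 peaks of 16, 21, 14 and 9 tags and folds of 4.06, 3.3, 4.12 and 1.59, and Runx1 with 4 peaks and a highest fold of 3.12. Of the 4 Runx3 peaks, 3 overlapped a listed H3K4me1 region. Stat4, which carries the signal of interleukin-12, had 4 peaks, with 20 tags and a fold of 6.27 at the strongest. Ikzf2, the gene of the Ikaros-family factor Helios, had 3 peaks of 10, 8 and 6 tags with folds of 8.04, 6.65 and 5.51, and Bach2, a repressor of effector genes, 3 with a highest fold of 2.98. The naive-cell factor genes Klf2, Lef1 and Tcf7 had 2 peaks each. Prdm1, Batf and Bhlhe40 had 1 each. Tbx21 had 1 peak of 8 tags with a fold of 1.65, below the median of the list. Of the 19, the expression lists held Irf8, Bhlhe40 and Tbx21 as lower in Tbx21-/- cells and Tcf7 as higher. In the authors' deposited table Tbx21 stood at 124 FPKM in Tbx21-/- cells and 271 FPKM in wild type cells, so its transcript was still counted in the cells labelled Tbx21-/-, and the table does not tell which exons were read.

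Genes of T cell receptor signalling were closest to a peak in 26 of 44 cases. They covered the chain from receptor to nucleus: the receptor chains Cd247 and Cd3d, the kinases Lck, Fyn, Zap70, Tec and Txk, the adaptors Grap2 and Sh2d2a, the enzymes Plcg1, Prkcq and Rasgrp1, and the factors Nfatc1 and Nfatc2. Most had few tags. Lck had 1 peak of 13 tags with a fold of 3.65, Zap70 1 of 7 tags with 2.75 and Cd3d 1 of 11 tags with 1.86. Genes that dampen the signal were there as well, with 3 peaks at the ubiquitin ligase gene Cblb (highest fold 4.56), 3 at Pag1 (4.17) and 1 each at Csk, Ptpn22 and Ubash3a. Of the 26, 24 were on neither expression list, and the exceptions were Pag1 and Txk. Over all bound coding genes the share on neither list was 93.8%.

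Costimulatory and inhibitory receptor genes were closest to a peak in 16 of 29 cases. The costimulators Icos and Cd28 had 3 peaks each, with highest folds of 2.94 and 2.33. The inhibitory receptor gene Ctla4 had 2 peaks with a highest fold of 3.25, and Pdcd1, Tigit and Havcr2 had 1 each, of 7, 7 and 16 tags. In the authors' deposited table Ctla4 stood at 66.3 FPKM in Tbx21-/- cells and 24.4 FPKM in wild type cells, and Havcr2 at 4.70 FPKM in Tbx21-/- cells and 21.6 FPKM in wild type cells. The signalling lymphocyte receptor genes Slamf7, Slamf1 and Slamf6 had 1 peak each, with folds of 3.51, 2.72 and 1.9.

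Cytokine genes were closest to a peak in 14 of 31 cases. The death ligand gene Fasl had 5 peaks, of which 1 with 7 tags reached a fold of 4.23 and the others lay between 1.86 and 1.95. Il10, an anti-inflammatory cytokine gene, had 3 peaks of 11, 11 and 16 tags with folds of 3.25, 1.98 and 3.38. Il21 and Lif had 2 peaks each, and Csf2, Csf1, Tnf, Lta, Tnfsf8, Tnfsf10, Xcl1, Tgfb3 and Il17a had 1 each. Among the genes with 1 peak Csf2 had the highest fold, 5.13 with 13 tags. In the authors' deposited table Lif stood at 81.3 FPKM in Tbx21-/- cells and 39.1 FPKM in wild type cells, and Csf1 at 37.4 FPKM in Tbx21-/- cells and 193 FPKM in wild type cells.

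Cytokine receptor genes were closest to a peak in 18 of 34 cases and included both chains of the interferon-gamma receptor. Ifngr1 had 4 peaks with a highest fold of 3.97. Ifngr2 had 3 adjoining peaks of 19, 23 and 49 tags with folds of 3.76, 3.56 and 4.11. Their 91 tags were the highest sum among the cytokine receptor genes of the list. In the authors' deposited table Ifngr2 stood at 9.57 FPKM in Tbx21-/- cells and 1.66 FPKM in wild type cells. The neighbouring genes Il18r1, a receptor for interleukin-18, and Il1rl1, the receptor for interleukin-33, had 3 peaks each. At Il18r1 the folds were 2.81, 5.01 and 2.23, and at Il1rl1 1.79, 5.1 and 2.76. The receptor chains Il6st (4 peaks), Il7r (3), Il10rb and Il17ra (2 each) followed, and the interleukin-12 receptor gene Il12rb2 had 1 peak of 21 tags with a fold of 4.18. Genes of the JAK-STAT pathway beyond Stat4 had 1 peak each: Jak1, Stat3, Stat5a, the phosphatase genes Ptpn1, Ptpn2 and Ptpn11, and the feedback inhibitor genes Socs1, Socs3 and Socs6. Their folds ran from 1.74 at Socs3 to 4.05 at Jak1. All 10 bound genes of that list were on neither expression list, as were 93.8% of all bound coding genes.

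Chemokine and chemokine receptor genes were closest to a peak in 19 of 32 cases. S1pr1, the receptor that lets T cells leave lymph nodes, had 5 peaks with a highest fold of 3.35, and Cxcr4 had 4 peaks of 13, 9, 8 and 7 tags with folds of 2.04, 7.71, 2.14 and 3.19. Gpr183, an oxysterol receptor gene that positions T cells, had a peak of 37 tags with a fold of 6.7. Receptor genes on chromosome 9 included Ccr2, Ccr3, Ccr8, Ccr9, Cxcr5, Cxcr6 and Xcr1. Among these, the largest counts were 32 tags at Cxcr6, with a fold of 2.3, and 29 tags at Xcr1, with a fold of 5.1. Ccr6 had 1 peak of 18 tags with a fold of 6.55. In the authors' deposited table Ccr6 stood at 5.90 FPKM in Tbx21-/- cells and 0.0853 FPKM in wild type cells. Among ligand genes, Ccl5 had 2 peaks and Ccl1, Ccl3, Ccl4 and Xcl1 had 1 each.

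Cytotoxic and natural killer receptor genes were closest to a peak in 10 of 33 cases. Apart from Fasl each had 1 peak, with folds from 1.98 at Nkg7, a granule protein gene, to 5.45 at Klrb1c. Gzmb, the gene of granzyme B, had 13 tags with a fold of 2.68, and Prf1, the gene of perforin, 7 tags with a fold of 2.63. In the authors' deposited table Nkg7 stood at 42.9 FPKM in Tbx21-/- cells and 571 FPKM in wild type cells, and Prf1 at 13.7 FPKM in Tbx21-/- cells and 77.4 FPKM in wild type cells. Klra7 and Klrb1c belong to families of similar genes, so the gene given there is uncertain. Integrin and adhesion genes were closest to a peak in 9 of 26 cases, led by Itgb1 with 2 peaks and a fold of 5.49. Genes of the NF-kB pathway were in 9 of 26 cases, among them the subunit gene Rel and the inhibitors Tnfaip3, Nfkbia and Cyld. Rel had 2 peaks, and its highest fold, 5.51, belonged to a peak of 6 tags, the lowest count of the list.

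Outside these lists, the survival genes Bcl2 and Mcl1 had 5 and 4 peaks, and the death genes Casp8 and Apaf1 had 1 each. The 5 peaks of Bcl2 held 13, 8, 14, 13 and 25 tags with folds of 2.31, 2.06, 1.84, 2.1 and 3.17. Metabolic genes included Hif1a with 3 peaks, and Rptor, Pfkp and Slc2a1 with 2 each. Rptor, a subunit gene of the growth regulator mTORC1, reached a fold of 3.87. Of 9 bound cell cycle genes 8 had 1 peak, such as Myc with 9 tags and a fold of 2.6 and Ccnd3 with 20 tags and 2.3. Among chromatin regulators Hdac4 led, and the demethylase gene Kdm5b had 24 tags with a fold of 7.25. Ribosomal protein genes were closest to 9 peaks in 6 of 32 cases, led by Rplp1 with 3. Of the Notch, Wnt and TGF-beta pathway, 5 of 30 genes were bound, among them the TGF-beta mediators Smad3 and Smad4 and the corepressor gene Ski, besides Axin1 and Axin2.

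Defining markers of other cell types were the closest gene in shares on both sides of the 10.4% of all coding genes. The erythroid and platelet list had 0 of 13 (upper limit of the exact interval 24.7%), the liver list 1 of 25 (Apoa1), the neuronal list 2 of 30 (Nefl and Slc17a6) and the B cell list 1 of 16. That 1 B cell gene, the complement receptor gene Cr2, had 72 tags at a fold of 1.31. Of myeloid and dendritic cell markers 4 of 24 were bound, or 16.7% (exact 95% interval 4.74 to 37.4): Ly86, Tyrobp and Itgam with 2 peaks each and Spi1 with 1 of fold 4.96. Itgam also stands in the integrin list.

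Gene families defined by their symbols spread as widely. Olfactory receptor genes were closest to a peak in 11 of 1110 cases, or 0.991% (exact 95% interval 0.496 to 1.77), vomeronasal receptor genes in 6 of 355, keratin genes in 0 of 112 and Hox genes in 0 of 39, against 10.4% of all coding genes. The peaks at olfactory receptor genes were nonetheless not all weak: Olfr726 and Olfr156 had folds of 11.9 and 11.61 with 16 and 17 tags. At the other end, 6 of 8 GIMAP genes, small GTPases of lymphocyte survival, were closest to a peak. They share 1 locus on chromosome 6 with 7 peaks, and the strongest, at Gimap1, had 35 tags and a fold of 7.55. These 6 GIMAP genes were on neither expression list, as were 93.8% of all bound coding genes. Interleukin and interleukin receptor genes were bound in 22.9% of 83 cases, tyrosine and dual-specificity phosphatases in 22.6% of 62, and TNF family ligands and receptors in 29.0% of 31. Zinc finger (Zfp) genes, with 8.82% of 397, solute carriers, with 8.53% of 375, and Tmem genes, with 9.24% of 238, lay at or just under the background.

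Most bound genes were on neither expression list. Bound means closest to at least 1 peak at whatever distance, and whether a peak acts on that gene was not tested. Of the 2270 bound coding genes, 2130 were on neither, or 93.8% (exact 95% interval 92.8 to 94.8), 95 were listed as lower in Tbx21-/- cells and 45 as higher there. Those lists hold 0.964% and 0.941% of all coding genes, and 4.19% and 1.98% of the bound ones. Genes with more peaks were more often listed: 385 of 439 genes with at least 2 peaks, or 87.7% (84.3 to 90.6), and 16 of 21 genes with at least 5, or 76.2% (52.8 to 91.8), were on neither list. The counts are of nested groups, and no test was made between them.

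Among the 16 genes with at least 5 peaks on neither list were Ets1, Tle4, Ptprc, Id2, Fyn, Mbd2, Lrrc4c, Runx2, Trib2, Gata3, S1pr1, Bcl2, Otulinl, Pdcd4 and Hivep2. They include transcription factors and corepressors (Ets1, Tle4, Id2, Runx2, Gata3, Hivep2), a reader of methylated DNA (Mbd2), signalling enzymes and a pseudokinase (Ptprc, Fyn, Trib2) and an exit receptor (S1pr1). Runx2 had 5 peaks of 6, 29, 11, 6 and 6 tags with folds of 2.73, 3.39, 3.1, 4.41 and 1.79. Lrrc4c is the gene of the low-fold run described above. The 5 genes of that size on the other side were Ifng, Btg1, Prex1, Fasl and 1700025G04Rik, all lower in Tbx21-/- cells. Of the 144 bound genes in the T cell lists, 110 were on neither expression list, 24 were lower in Tbx21-/- cells and 10 were higher. A gene on neither list has no deposited FPKM here, so whether it was expressed, or changed by less than the at least 2-fold of every listed gene, is unknown.

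Peak by peak, the listed and unlisted genes were close in median fold, but less so in length and in overlap with the histone lists. Peaks at genes lower in Tbx21-/- cells had a median of 11 tags and 396 bp over 172 peaks, those at genes higher in Tbx21-/- cells 9 tags and 355 bp over 63 peaks, and those at genes on neither list 9 tags and 346 bp over 2684 peaks. The median folds were 2.79, 2.62 and 2.62 in the same order. H3K4me1 regions overlapped 15.7% (exact 95% interval 10.6 to 22.0), 9.52% (3.58 to 19.6) and 9.24% (8.17 to 10.4) of these peaks. H3K27me3 regions overlapped 0, 3 (4.76%) and 12 (0.447%) of them. The 3 peaks lay at Ccr6 and Ifngr2 alone. No test was made, since peaks of 1 library are not replicates.

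A minority of T-bet peaks overlapped a listed region of the histone marks. The share that the bases covered by these lists would give by themselves was not computed, so the values below are not called high or low. H3K4me1, a mark of enhancers, overlapped 308 of 3226 peaks by at least 1 bp, or 9.55% (exact 95% interval 8.55 to 10.6), and H3K27me3, a mark of Polycomb repression, 16, or 0.496% (0.284 to 0.804). The histone lists of the authors hold selected regions, so a peak outside them may still carry a mark. The 16 peaks at H3K27me3 regions included 2 of the 3 at Ifngr2 and those at Ccr6, S1pr1 and Spi1. The 308 peaks at H3K4me1 regions had a median fold of 2.98, against 2.58 for other peaks, with a median of 9 tags in both.

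By gene, the marks were more frequent. A listed H3K4me1 region was assigned to 79 of the 95 bound genes lower in Tbx21-/- cells, or 83.2% (74.1 to 90.1), to 21 of the 45 higher there, or 46.7% (31.7 to 62.1), and to 975 of the 2130 on neither list, or 45.8% (43.6 to 47.9), against 17.2% of all coding genes. A listed H3K27me3 region was assigned to 22 (23.2%), 26 (57.8%) and 546 (25.6%) genes of these groups, against 11.8% of all coding genes. The histone lists come from both genotypes, and the sources used here do not give how the authors chose them.

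The overlap with H3K4me1 regions was larger among peaks of higher fold. Grouped by fold enrichment, the share of peaks at H3K4me1 regions was 2.96% below 1.5 (exact 95% interval 0.813 to 7.41), 6.58% up to 2, 8.25% up to 2.5, 10.1% up to 3.5, 13.4% up to 5 and 13.1% above (9.54 to 17.3). Grouped by tags it was 7.84% at 6 tags, 9.81% at 7 to 8, 10.6% at 9 to 11, 10.5% at 12 to 19 and 6.10% at 20 or more. The share of peaks closest to a gene of the T cell lists was lowest at few tags. It was 3.92% at 6 tags (2.53 to 5.78), 6.74% at 7 to 8, 9.08% at 9 to 11, 11.4% at 12 to 19 (9.16 to 13.9) and 10.3% at 20 or more, against 8.09% of all peaks. By fold it was 2.96% below 1.5 and between 6.31% and 9.55% in the 5 higher groups, without an order.

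The list gives a start site for the closest gene in 9 entries. It lay inside the peak at Tmpo, Slc38a10, Crem, Asph and Tardbp, and 0.171 kb away at Tcf3, an E-protein factor gene. At Madd, Smox and Tcf7l2 it lay 3.72, 17.8 and 26.9 kb away. The Tcf7l2 peak, at a gene of the Wnt pathway, had 14 tags and a fold of 11.02, while the 5 peaks over a start site had 7 to 13 tags and folds from 1.58 to 3.35. For all other peaks the distance to the closest gene was not used here.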

How the data were processed

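One T-bet ChIP-seq library of wild type Th1 cells, out of 9 samples in 7 groups, was described from the authors' workbook. Groups follow the labels. Per the submitters' processing notes, the build was mm9 and the tools were MACS 1.4.1, Bowtie 0.12.7, TopHat 1.3.3, CASAVA 1.7 and DESeq, with no roles stated there. The deposited T-bet list gives, as the authors made it, a tag count per peak, a fold enrichment (a ratio against the control) and a false discovery rate in percent. The sources used here do not give the threshold behind it. The authors' deposited expression lists (219 genes lower and 211 higher in Tbx21-/- cells) give 1 FPKM value per genotype over 2 libraries each and a log2 ratio, with at least 5.02 FPKM in the higher genotype.

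Closest genes were matched by symbol or synonym to 21887 coding genes of RefSeq (GRCm38.p6, for names and gene numbers per chromosome). Of 2492 names 2471 matched, and 2 matches on another chromosome were dropped. Distances run between the facing ends of neighbouring peaks. Overlap means at least 1 bp. Intervals are exact 95% Clopper-Pearson (shares) or Poisson (counts) and cover counting error only. With 1 library no test was made. The steps were tested on simulated data. The 21 gene lists and 19 symbol families, the named genes and the members were chosen with earlier results of these data known. Cxcl11 and Ahsp had no match. Named genes are the 5 peaks with the highest fold, the 5 with most tags, the 5 longest, the 10 genes with most peaks (ties kept) and members of each list with a peak, most peaks first. Genes named beyond that, such as those of gene families, microRNAs, start sites and further list members, were chosen after their values were seen. Stricter thresholds, other overlaps and other distances were tried. The software was SciPy 1.17.1, numpy 2.4.6 and pandas 2.3.3 under Python 3.11.15, with matplotlib 3.10.9 for figures. Results for some genes are not reported here.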

Additional observations from a re-analysis of the deposited data

How the results depend on the processing

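Of 162 alternative values 98 stayed close to those reported and 64 moved; the cause was not tested beyond the smaller number of peaks left. A false discovery rate of at most 5% (3208 peaks) moved none of the summary values. This limit drops only 18 peaks, so it could hardly move them and does not test a stricter call. A fold of at least 3 left 1136 peaks, and at least 20 tags left 213. With these 2 limits in turn the median gap was 1110 and 7391 kb, the share with a neighbour within 10 kb 4.75% and 10.3%, the share of bound coding genes on neither list 92.4% and 88.8%, the share of T cell list genes bound 20.3% and 6.64% and of all coding genes 4.13% and 0.772%, and the share at H3K4me1 regions 12.9% and 6.10%. A fold of at least 3 took the X to autosome ratio to 0.621. At least 20 tags took the median length to 585 bp, the share at H3K27me3 regions to 1.88% and the correlation of length and tags to 0.123. A neighbour within 5 or 25 kb was found for 11.5% or 27.1% of peaks. Counting only genes with at least 2 peaks gave 87.7% on neither list, 18.6% of T cell list genes and 2.01% of all coding genes. Requiring at least 50% of the peak to overlap gave 8.21% at H3K4me1 regions, and allowing 1 kb gave 16.2% there and 1.36% at H3K27me3 regions. All 10 T cell lists stayed above the share of all coding genes at a false discovery rate of at most 5%, at a fold of at least 1.5 and with at least 2 peaks. At a fold of at least 3 it was 9 and at 20 tags 6. Of the 5 lists of other cell types, 1 stood above that share at each of these settings. With at least 2 peaks the myeloid list had 6.23 times that share and the glycolysis list 7.12 times, within the T cell range of 1.51 to 23.3. At a fold of at least 3 the myeloid list had 3.03 times, within the T cell range of 0.932 to 9.70. A fold of at least 1.5 and leaving out sensory genes were chosen after seeing the data. Peaks per chromosome length were not run. No paired analysis was possible because T-bet was measured in 1 library and expression was deposited as 1 value per genotype.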
